A study of Mus musculus with 8 samples.

Results

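Heme is made by a short chain of enzymes that starts and ends in the mitochondrion and runs through the cytosol in between. The 8 enzyme genes followed here were *Alas1*, *Alas2*, *Alad*, *Uros*, *Urod*, *Cpox*, *Ppox* and *Fech*, taken as the rows of the count files whose Ensembl identifiers carry these symbols in GENCODE M21. They are 8 of the 54838 genes listed in the files, and all 8 were found. The cells were *iMLL-AF9* mouse leukemic cells, which derive from mice on the C57BL/6 background and carry a doxycycline-inducible allele of the *MLL-AF9* fusion oncogene. All 8 samples share that allele and are labeled as bone marrow leukemic stem cells of genotype WT, whereas the description of the series calls the cells preleukemic. In the treated group, 4 samples received IOX5, an inhibitor of the prolyl hydroxylases (PHDs) that mark the hypoxia-inducible factors (HIFs) for degradation. The control group of 4 samples received DMSO, the vehicle. The samples are numbered 1 to 4 in each group. Neither the dose of IOX5, nor its duration, nor what the numbers stand for (animals, cultures or days) is given in the sources used here, so the p-values measure the spread between these samples, which may be technical.

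The pathway begins with 5-aminolevulinate synthase (ALAS), which joins glycine and succinyl-CoA and sets the pace of heme production in most cells. The ubiquitous isozyme is encoded by *Alas1*, whose expression is held down by heme itself, and the erythroid isozyme by *Alas2*, which GATA1 drives and iron-responsive control of translation limits. ALAD, UROS and UROD then help build and trim the porphyrin ring in the cytosol, CPOX and PPOX oxidize it in mitochondria, and FECH, an iron-sulfur protein, inserts ferrous iron.

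Stretches of the promoters were examined because HIFs bind DNA at the core letters ACGTG or GCGTG. The windows run from 250 bases before to 50 bases after each gene start of NCBI RefSeq on GRCm38.p6, and 7 of the 8 genes had a window, with 10 windows in all. On either strand, a HIF core occurred in 8 of these 10 windows and in 43.8% of all 32851 windows of the same length. The E-box letters CACGTG, which contain ACGTG on both strands, occurred in 4 of the 10 windows and in 7.15% of all. The letters CGCATGCG, the core bound by nuclear respiratory factor NRF1, occurred in 2 of the 10 windows, both of *Alas1*, and in 1.87% of all. The 2 windows of *Alas1* overlap and hold this NRF1 core and their HIF core as the same sites counted in each, and the overlapping windows of *Alad* likewise share a GCGTG. The GATA letters AGATAA or TGATAA occurred in 3 of the 10 windows, those of *Alas2*, *Cpox* and *Uros*, and in 18.6% of all. The stretches shown are examples from the isozyme pair and from the cytosolic and mitochondrial steps. The matched letters are in capitals, each stretch reads 5′ to 3′ on the strand of its gene, and a match is a description of the letters and not of binding.
*Alas1*, NRF1 core, chr9:106247906-106247935 (minus strand): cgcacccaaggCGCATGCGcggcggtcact
*Alas1*, HIF core, chr9:106247936-106247965 (minus strand): ggcttcggcgcgcGCGTGcgcgcggcaggc
*Alas2*, GATA letters on the opposite strand, chrX:150547319-150547348 (plus strand): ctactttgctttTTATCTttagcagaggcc
*Alad*, E-box, chr4:62519920-62519949 (minus strand): ccgccccgccccCACGTGggcttgcgcttt
*Urod*, E-box, chr4:116994445-116994474 (minus strand): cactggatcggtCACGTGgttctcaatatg
*Uros*, E-box, chr7:133709516-133709545 (minus strand): CACGTGtgctttctcacctcgtccacgatt
*Cpox*, HIF core, chr16:58670089-58670118 (plus strand): caatccaaggtgtACGTGactaaagcgcct
*Ppox*, HIF core on the opposite strand, chr1:171281184-171281213 (minus strand): agtgaaacgcagtCACGCaggccgccagaa

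The libraries were of similar depth, with 12343770 to 14116054 gene-assigned reads for DMSO and 11351507 to 12708888 for IOX5. Levels are given as CPM, reads scaled to a common library size after TMM correction, and differences as log2 of IOX5 over DMSO. The test was edgeR's quasi-likelihood test over the 12405 genes that passed the filter on low counts, with Benjamini-Hochberg adjustment over these genes and an adjusted p under 0.05 as the threshold. The filter kept 7 of the 8 enzyme genes, all but *Alas2*. All 12 myeloid progenitor markers were measured, with summed levels of 2555 to 4858 CPM for DMSO and 3025 to 5632 CPM for IOX5, whereas 5 of 8 lymphoid markers had no read in any sample. The summed markers of neutrophils (540 to 1340 CPM for DMSO, 707 to 2090 CPM for IOX5), of mast cells and basophils (188 to 725 and 330 to 1137 CPM) and of megakaryocytes (16.5 to 65.4 and 39.3 to 118.8 CPM) overlapped between the groups. Within replicate numbers, the sum of each of these 3 lists was higher with IOX5 in 4 of 4 pairs. The progenitor, macrophage and lymphoid sums were too, as were 21.3% of all tested genes. The erythroid sum was higher in 2, but most of it was *Tfrc*, a gene that other cells use as well. *Tfrc* had a mean of 767 CPM for DMSO and 769 CPM for IOX5. Of the 14 erythroid markers tested, 12 had a log2 fold change above 0, against 6550 of 12405 over all tested genes. A comparison with the replicate number as a block, described below, called 11.2% of all tested genes higher and 9.43% lower. It called 8 of 8 tested mast cell and basophil markers, 6 of 8 neutrophil and 3 of 5 megakaryocyte markers higher. Of the macrophage, progenitor and lymphoid markers tested, it called 3 of 5, 6 of 12 and 1 of 1 higher. No tested marker of these lists was called lower. As whole populations were sequenced, a change in the share of cells of a type cannot be told apart from a change in RNA per cell.

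By edgeR, IOX5 left the pathway without a call in the comparison of groups, whereas DESeq2 called *Alas1* higher. Of the 7 enzyme genes tested, 4 had a log2 fold change above 0 and 3 below, with a median of 0.041 against 0.017 for all tested genes. None of the 7 passed the threshold by edgeR (1, *Alas1*, had an unadjusted p under 0.05), which 2.02% of all tested genes did, 0.774% in the direction of higher and 1.25% in the direction of lower levels. Same-numbered samples shared deviations from the group means, so a second comparison used the number as a block, and *Alas1* was the single enzyme of the 7 called higher with it. The block called 11.2% of all tested genes higher and 9.43% lower.

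*Alas1* (ENSMUSG00000032786, chr9:106233455-106248654, minus strand, GRCm38) stood at 203.6, 196.3, 224.7 and 233.4 CPM in DMSO samples 1 to 4 and at 234.9, 289.2, 271.1 and 254.1 CPM in IOX5 samples 1 to 4. Every IOX5 sample was above every DMSO sample, a separation that 5.98% of all tested genes showed. The opposite separation, with every IOX5 sample lower, was seen in 8.3% of all tested genes and in none of the 7 enzyme genes. The mean went from 214.5 ± 17.4 CPM (SD, n = 4) to 262.3 ± 23.2 CPM (SD, n = 4), a ratio of 1.22 with a 95% interval of 1.07 to 1.39. The log2 fold change was 0.29 ± 0.084 (SE), with an adjusted p of 0.104 by edgeR without the block. Within replicate numbers 1 to 4, the log2 difference was 0.21, 0.56, 0.27 and 0.12, higher in 4 of 4 pairs, as were 21.3% of all tested genes. With the block, the log2 fold change was again 0.29, with an adjusted p of 0.0161 by edgeR. DESeq2 without a block, which called 4.67% of its genes higher and 5.75% lower, gave 0.30 with an adjusted p of 0.0185, and limma's voom called 0 of the 7 enzyme genes. The call with the block was lost without number 3 (adjusted p = 0.0833 by edgeR) and kept without number 1, 2 or 4 (0.0422, 0.0441 and 0.0122). The summed level of 7 macrophage markers moved alongside, at 113 to 182 CPM for DMSO and 267 to 516 CPM for IOX5. Without *Hmox1*, which is both a macrophage marker and the enzyme of heme breakdown, the 6 remaining markers overlapped between the groups at 70.0 to 129.4 CPM and 121.7 to 335.1 CPM. The mast cell, neutrophil and megakaryocyte markers given above were also higher within pairs, as *Alas1* was. The part of these cells in the *Alas1* level was not tested.

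*Alas2* (ENSMUSG00000025270, chrX:150547375-150570638, plus strand) was represented by 1 read in all, in DMSO sample 4, among 100522983 gene-assigned reads, against 23785 reads for *Alas1*. A count of 0 allows up to 3 reads, which corresponds to 0.211 to 0.266 CPM per library, for counting error only. In the 7 libraries with no *Alas2* read, *Alas1* was at least 505-fold to 694-fold higher per length of transcript, taking the 3 reads as the limit for *Alas2*. No difference in *Alas2* between the groups was detectable at this depth, and the planned test of the isozyme ratio, which needed 10 *Alas2* reads in all, was not made. The opposite strand of *Alas2* holds exons of *Apex2* over 311 bases, and the 1860 reads of *Apex2* were kept apart from *Alas2* by strand.

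Some erythroid markers were scarce alongside *Alas2*, and others were measured. Of 24 such markers, 14 passed the filter. *Slc4a1*, *Epb42* and *Hba-a2*, membrane and globin genes of red cells, had 4, 8 and 18 reads in all samples together. *Gata1* and the β-globin genes *Hbb-bt* and *Hbb-bs* had 1034, 955 and 902 reads. The summed level of the 20 markers found other than *Tfrc*, *Xpo7* and *Bpgm*, genes that other cells use as well, was 16.5 to 58.1 CPM for DMSO and 24.1 to 83.8 CPM for IOX5.

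**Figure D1:**
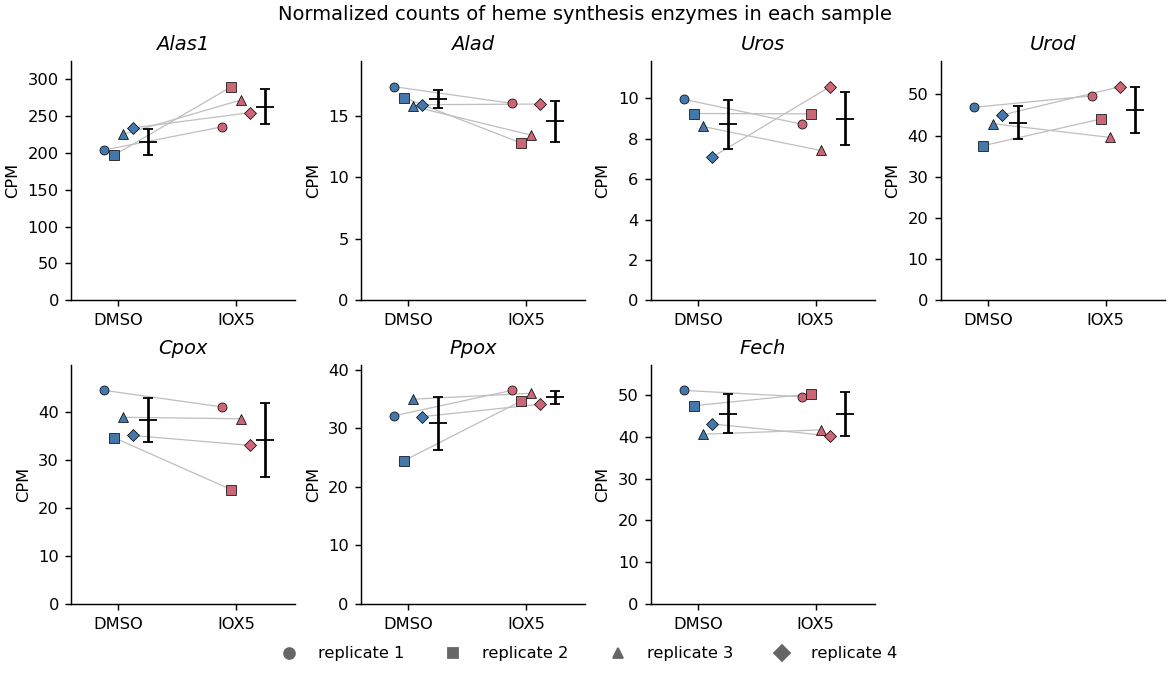
CPM on the y axis for the 7 tested enzyme genes in DMSO (blue) and IOX5 (red) samples, with the marker shape giving the replicate number, gray lines joining equal numbers, and black bars giving mean and SD (n = 4). For *Alas1* all 4 IOX5 samples lie above all 4 DMSO samples, and for the other 6 genes the groups overlap.

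The cytosolic steps did not share a direction. *Alad* (ENSMUSG00000028393, chr4:62509169-62519918, minus strand), the dehydratase that condenses aminolevulinate to porphobilinogen and needs zinc, stood at 17.4, 16.5, 15.8 and 15.9 CPM with DMSO and at 16.0, 12.8, 13.4 and 16.0 CPM with IOX5. IOX5 samples 2 and 3 were below all DMSO samples, whereas samples 1 and 4 fell among them. The log2 fold change was −0.17 ± 0.109 (SE), with an adjusted p of 0.424 by edgeR and of 0.241 with the block, and its 95% interval ran from −0.42 to 0.077.

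*Uros* (ENSMUSG00000030979, chr7:133686243-133710072, minus strand), the synthase that closes the ring, stood at 9.95, 9.26, 8.61 and 7.10 CPM with DMSO and at 8.73, 9.24, 7.43 and 10.6 CPM with IOX5. The groups overlapped throughout, and number 4 was the single pair with a higher IOX5 level, at a log2 difference of 0.56. The log2 fold change was 0.041 ± 0.158 (SE), with an adjusted p of 0.911 by edgeR, and it turned to −0.031 without DMSO sample 4 and to −0.047 without IOX5 sample 4. *Urod* (ENSMUSG00000028684, chr4:116989965-116994413, minus strand), the decarboxylase of the last cytosolic step, stood at 46.9, 37.6, 42.9 and 45.0 CPM with DMSO and at 49.7, 44.0, 39.6 and 51.9 CPM with IOX5. IOX5 samples 1 and 4 were above all DMSO samples, and samples 2 and 3 lay among them. Its log2 fold change was 0.10 ± 0.105 (SE), with an adjusted p of 0.630 by edgeR and a 95% interval of −0.13 to 0.34.

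Of the mitochondrial steps, the oxidases *Cpox* and *Ppox* differed in sign and *Fech* was level. *Cpox* (ENSMUSG00000022742, chr16:58670292-58717636, plus strand), coproporphyrinogen oxidase, stood at 44.6, 34.8, 39.0 and 35.2 CPM with DMSO and at 41.2, 23.9, 38.7 and 33.1 CPM with IOX5. IOX5 sample 2 lay far below the other 7 samples, which spanned a common range. The log2 difference within numbers 1 to 4 was −0.12, −0.54, −0.011 and −0.087, lower in 4 of 4 pairs, as were 19.8% of all tested genes, and the log2 fold change of −0.17 ± 0.165 (SE) gave an adjusted p of 0.621 by edgeR and of 0.178 with the block.

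*Ppox* (ENSMUSG00000062729, chr1:171275990-171281186, minus strand), protoporphyrinogen oxidase, stood at 32.1, 24.4, 34.9 and 32.0 CPM with DMSO and at 36.4, 34.6, 36.0 and 34.1 CPM with IOX5. The IOX5 samples lay close together at the upper end of the DMSO samples, and DMSO sample 2 was the lowest. The log2 difference within numbers was 0.18, 0.50, 0.041 and 0.092, higher in 4 of 4 pairs, and the log2 fold change of 0.19 ± 0.109 (SE) gave an adjusted p of 0.363 by edgeR and of 0.129 with the block. Exons of *B4galt3* lie over 791 bases on the opposite strand of *Ppox*, with 2800 reads against the 3311 of *Ppox*, and the counts of the pair depend on the strand assignment.

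*Fech* (ENSMUSG00000024588, chromosome 18, minus strand), ferrochelatase, stood at 51.1, 47.4, 40.6 and 43.1 CPM with DMSO and at 49.6, 50.3, 41.7 and 40.2 CPM with IOX5. The samples fell into the same range in both groups. The mean was 45.6 ± 4.65 CPM (SD, n = 4) and 45.4 ± 5.22 CPM (SD, n = 4), with a log2 fold change of −0.0046 ± 0.104 (SE), an adjusted p of 0.987 by edgeR and a 95% interval of −0.24 to 0.23.

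**Figure D2:**
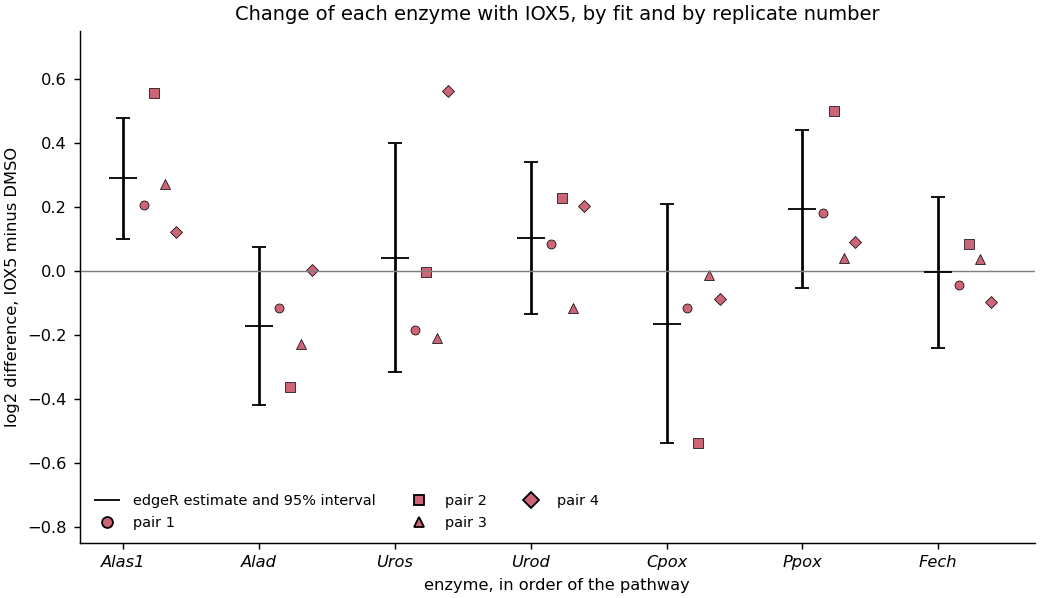
Log2 difference of IOX5 minus DMSO on the y axis for each tested enzyme gene in pathway order, with the edgeR estimate without the block and its 95% interval in black and the log2 CPM difference within each replicate number as red markers. All 4 markers lie above 0 for *Alas1* and *Ppox* and below 0 for *Cpox*, and pair 2 (squares) lies farthest from 0 in *Alas1*, *Alad*, *Urod*, *Cpox* and *Ppox*.

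Pair 2 gave the largest absolute difference in 5 of the 7 tested enzyme genes, *Alas1*, *Alad*, *Urod*, *Cpox* and *Ppox*, and pair 4 in the other 2, *Uros* and *Fech*. Over all tested genes, pair 2 was the largest in 42.7% and pair 4 in 23.2%. *Uros* had its smallest difference in pair 2, at −0.0030.

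Set per length of the principal transcript, the enzymes spanned more than an order of magnitude. The level in DMSO samples was 63.1 ± 5.13 CPM per kb for *Alas1*, 28.9 ± 2.70 for *Urod*, 16.9 ± 2.47 for *Ppox*, 13.1 ± 0.583 for *Alad*, 12.4 ± 1.47 for *Cpox*, 6.93 ± 0.707 for *Fech* and 4.96 ± 0.690 for *Uros* (CPM per kb, SD, n = 4 each). In this order the DMSO samples of *Ppox* and *Alad*, and those of *Alad* and *Cpox*, overlapped, and the other neighbors did not. In IOX5 samples the level was 77.2 ± 6.83 CPM per kb for *Alas1*, 31.1 ± 3.74 for *Urod*, 19.4 ± 0.606 for *Ppox*, 11.7 ± 1.35 for *Alad*, 11.0 ± 2.47 for *Cpox*, 6.91 ± 0.794 for *Fech* and 5.10 ± 0.740 for *Uros*. There *Alad* overlapped with *Cpox*, and the other neighbors did not overlap. With all annotated exons as the length, *Alad* (8.75 CPM per kb in DMSO) came before *Ppox* (6.83), so the order of these neighbors depends on the length used.

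Among 11258 tested genes with a transcript length, the level per kb put *Alas1* at the 89.5th percentile, *Urod* at 74.1, *Ppox* at 59.9, *Alad* at 49.0, *Cpox* at 47.6, *Fech* at 35.0 and *Uros* at 28.4. Among the 8 genes, the transcript of the entry step was thus the most abundant, and those of the ring-closing and iron-inserting steps the least abundant after *Alas2*. *Alas1* made up 39.7%, 43.3%, 44.0% and 45.4% of the summed level per kb of the 8 genes in DMSO samples 1 to 4, and 42.9%, 51.7%, 49.9% and 45.6% in IOX5 samples 1 to 4. IOX5 sample 1 lay within the DMSO range and the other IOX5 samples above it. The ratio of *Alas1* to *Alad* was 4.30, 4.37, 5.23 and 5.38 for DMSO and 5.38, 8.30, 7.40 and 5.84 for IOX5, with IOX5 sample 1 again no higher than DMSO sample 4. This ratio is given without a test, since it was chosen after both genes had been seen.

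**Figure D3:**
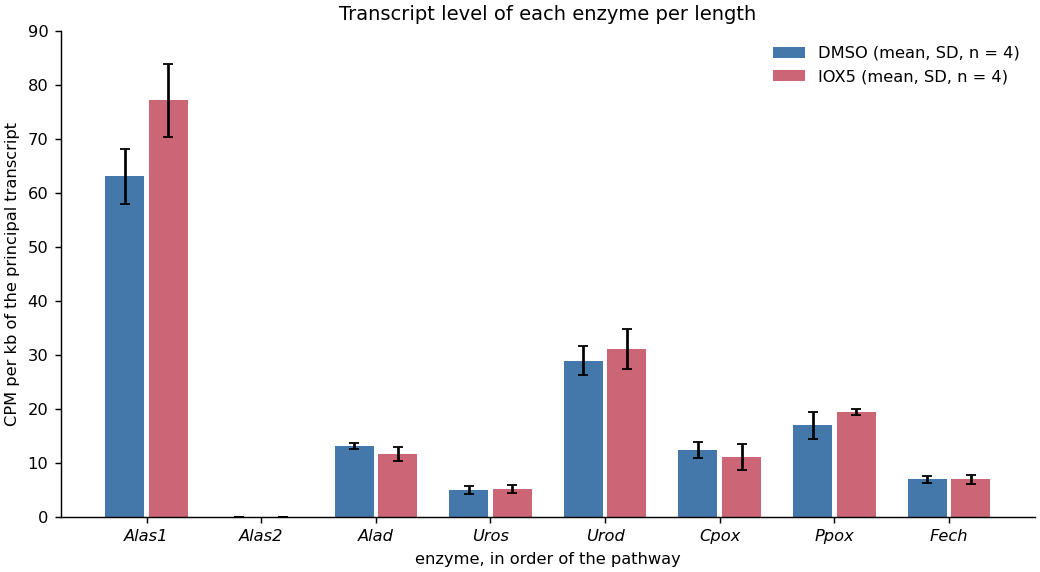
Mean CPM per kb of the principal transcript on the y axis for each enzyme gene in pathway order, DMSO in blue and IOX5 in red, with bars from 0 and SD (n = 4). *Alas1* is the highest at 63.1 and 77.2 CPM per kb, and *Alas2* does not rise above the axis.

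Genes that serve the pathway were set beside the enzymes in lists of transport, iron-sulfur supply, control and heme use. Their counts with the block are to be read against the 11.2% of all tested genes higher and 9.43% lower. Of 15 genes that carry glycine, iron, porphyrin or heme across membranes, 14 were tested, 6 with a log2 fold change above 0 and 8 below, with a median of −0.072 and 0 called by edgeR (1 higher and 2 lower at an unadjusted p under 0.05), while DESeq2 and limma's voom each called 1 higher and 1 lower. *Slc48a1*, a heme transporter of the endolysosome, and *Tspo*, a porphyrin-binding protein of the outer mitochondrial membrane, were the most highly counted. *Slc48a1* stood at 223.4, 191.5, 238.5 and 242.2 CPM with DMSO and at 281.6, 243.3, 324.5 and 302.7 CPM with IOX5, with no overlap. Its log2 fold change was 0.36 ± 0.105 (SE), with an adjusted p of 0.105 by edgeR and of 0.00159 with the block. *Tspo* had a log2 fold change of 0.24 with an adjusted p of 0.286 by edgeR and of 0.0366 with the block. The block called 2 of the 14 higher, these being *Slc48a1* and *Tspo*, and 1 lower.

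Of 13 genes of iron-sulfur cluster supply, on which FECH depends, 12 were found and tested, 9 above 0 and 3 below, with a median log2 fold change of 0.030 and 0 called by edgeR (1 higher and 1 lower at an unadjusted p under 0.05), while DESeq2 and limma's voom each called 1 lower. *Hspa9*, the mitochondrial chaperone that helps clusters onto their targets, stood at 873, 1001, 939 and 957 CPM with DMSO and at 721, 712, 770 and 897 CPM with IOX5. IOX5 sample 4 alone reached into the DMSO range, and the log2 fold change of −0.28 gave an adjusted p of 0.113 by edgeR, of 0.0147 with the block and of 0.0348 by DESeq2 without it. *Ndufab1*, the mitochondrial acyl carrier protein, differed by −0.11 on the log2 scale, with an adjusted p of 0.565 by edgeR. The block called *Hspa9* lower and *Hscb*, the cochaperone of *Hspa9*, higher at 0.36 with an adjusted p of 0.0457. *Hscb* was named after its values had been seen.

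Among the enzyme genes and the transport, iron-sulfur, control and heme-use lists, edgeR called a single gene without the block. It was an enzyme of heme breakdown. *Hmox1* (ENSMUSG00000005413, chromosome 8, plus strand), heme oxygenase 1, which opens the heme ring, stood at 52.6, 58.4, 43.4 and 63.2 CPM with DMSO and at 90.5, 180.5, 133.8 and 145.2 CPM with IOX5. Every IOX5 sample was above every DMSO sample. The mean rose from 54.4 ± 8.51 CPM to 137.5 ± 37.1 CPM (SD, n = 4 each), a 2.53-fold increase with a 95% interval of 1.84 to 3.46. The log2 fold change was 1.34 ± 0.201 (SE), with an adjusted p of 0.0254 by edgeR and of 2.48e-05 with the block, and the log2 difference within numbers 1 to 4 was 0.78, 1.62, 1.62 and 1.20. Without the block, the call was lost when DMSO sample 1, 2, 3 or 4 or IOX5 sample 3 was left out, where edgeR gave adjusted p-values of 0.0689, 0.0686, 0.0892, 0.0902 and 0.0708. With the block it was kept without any number. *Hmox1* is abundant in macrophages. The macrophage markers *Adgre1* and *Mrc1* had log2 fold changes of 1.24 and 1.87. Their adjusted p-values by edgeR were 0.0663 and 0.0922 without the block and 1.85e-04 and 4.16e-04 with it. *Cd68* and *C1qb*, also tested, had log2 fold changes of 0.38 and 0.67. Their adjusted p-values by edgeR were 0.528 and 0.469 without the block and 0.122 and 0.220 with it. *C1qa* and *Vcam1*, with 21 and 15 reads in all, did not pass the filter. The part of macrophages in the *Hmox1* level was not tested.

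*Hmox1* belongs to a list of 15 genes of ALAS control, heme sensing and heme breakdown, of which 14 were tested. Of these, 9 had a log2 fold change above 0 and 5 below, with a median of 0.067. With the block, 4 were higher and 1 lower. Besides *Hmox1*, the higher genes were *Nr1d2*, a heme-binding nuclear receptor of the clock, at a log2 fold change of 0.37 (with the block, adjusted p = 0.0173 by edgeR), *Blvrb*, a biliverdin reductase, at 0.49 (adjusted p = 0.0238), and the erythroid factor *Gata1* at 0.51 (adjusted p = 0.00802). The lower gene was *Ireb2*, an iron-responsive RNA-binding protein, at −0.19 (adjusted p = 0.0486 with the block). These 4 were named after their values had been seen. *Ppargc1a*, a coactivator known to raise *Alas1* in fasted liver, had 4 reads in all and was not tested.

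Of 16 genes listed for heme use, most encode proteins that carry heme or help to fit it, whereas *Prdx2* encodes a peroxidase without heme. All 16 were tested, 9 above 0 and 7 below, with a median log2 fold change of 0.060. Without the block, 0 were called by edgeR (2 higher and 5 lower at an unadjusted p under 0.05). DESeq2 and limma's voom each called 2 higher and 0 lower. *Mpo*, the heme peroxidase of myeloid granules, stood at 1339, 984, 3380 and 3077 CPM with DMSO and at 1565, 1141, 3882 and 3915 CPM with IOX5. The samples numbered 3 and 4 were high and those numbered 1 and 2 low in both groups. The log2 fold change of *Mpo* was 0.26 ± 0.505 (SE), with an adjusted p of 0.814 by edgeR and of 0.0196 with the block. *Cyb5b*, the outer mitochondrial cytochrome b5, had a log2 fold change of −0.16, with an adjusted p of 0.168 without and 0.0898 with the block. The block called 4 of the 16 higher and 2 lower, against 11.2% and 9.43% of all tested genes. The 4 were *Mpo*, *Cat* (catalase), *Cyb5a* and *Cyba*, and the 2 were *Hccs* and *Cycs*, holocytochrome c synthase and cytochrome c, the last 5 of these names having been chosen after their values had been seen. *Cat* and *Cyb5a* came nearest to the threshold without the block, at log2 fold changes of 0.30 and 0.37 and adjusted p-values of 0.0584 and 0.0697 by edgeR, and DESeq2 called both higher (adjusted p = 0.00126 and 0.00772).

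Of the 24 erythroid markers, 14 were tested, 12 above 0 and 2 below, with a median log2 fold change of 0.37, and 0 were called without the block by edgeR, DESeq2 or limma's voom, with 0 at an unadjusted p under 0.05 by edgeR. The most highly counted were *Tfrc*, the transferrin receptor that brings in iron, at a log2 value of 0.0034 (adjusted p = 0.993 by edgeR), and *Xpo7*, a nuclear exporter, at −0.14 (adjusted p = 0.293). The block called 4 of the 14 higher and 0 lower, against 11.2% and 9.43% of all tested genes. Among the 4 were *Hbb-bs*, *Hbb-bt* and *Gata1*, named after their values had been seen. Their mean levels in IOX5 samples were 12.1, 12.3 and 12.1 CPM. Reads of *Hbb-bs* and *Hbb-bt*, nearly identical β-globin copies, may be split between them by the counting.

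For comparison, 10 of 10 textbook HIF target genes had a log2 fold change above 0, with a median of 0.55. Of these, 6 were called higher, or 10 with the block. Over all tested genes, 6550 of 12405 were above 0, and 0.774% were called higher, or 11.2% with the block. Leaving out single samples gave 0 to 4 calls without the block, with 0 when DMSO sample 3, DMSO sample 4 or IOX5 sample 3 was left out, and 9 to 10 with it when a number was left out. *Ankrd37* and *Pdk1* had the smallest adjusted p-values, 0.0143 and 0.0157 by edgeR, with log2 fold changes of 1.38 and 0.67. *Pgk1*, a glycolytic kinase, and *P4ha1*, a collagen prolyl hydroxylase, followed at 0.57 and 0.53. The median of the 7 enzyme genes was 0.041.

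**Figure D4:**
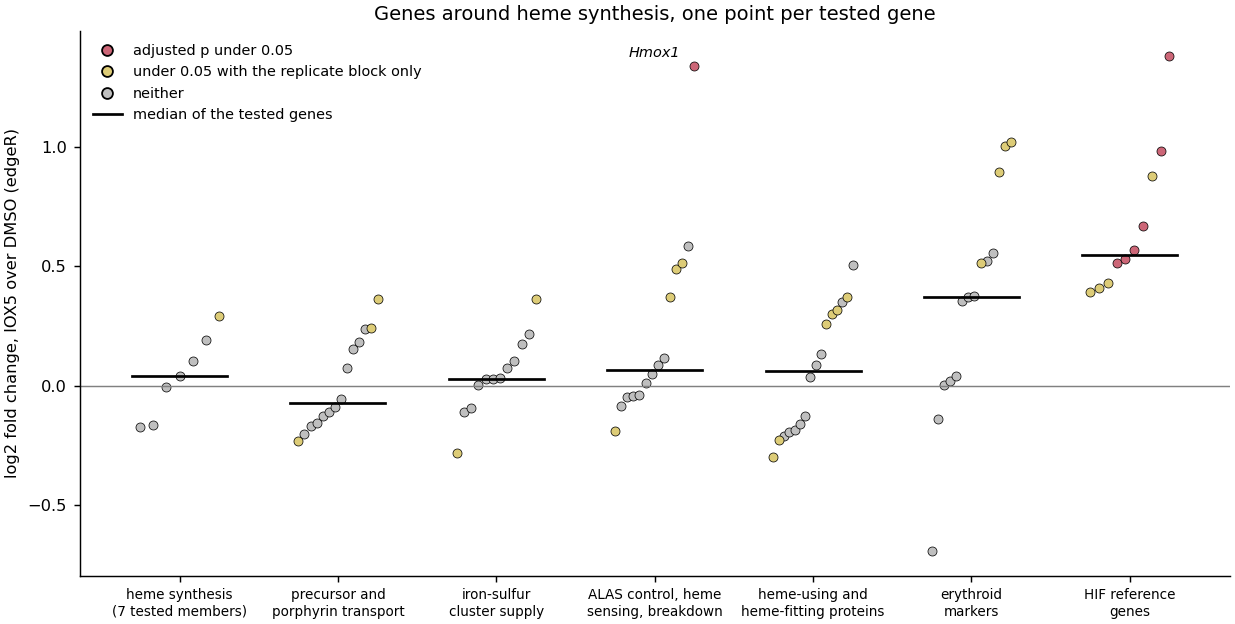
Log2 fold change of IOX5 over DMSO on the y axis for every tested gene of 7 lists, with red for an adjusted p under 0.05 without the block, yellow for under 0.05 with the block only, gray for neither and a black line for the median. The enzyme genes lie between −0.17 and 0.29, *Hmox1* stands at 1.34 in the control and breakdown list, and the HIF reference genes all lie above 0.

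The 7 tested enzyme genes did not vary together as a set among the samples, though some pairs were correlated. Over the 8 samples, with the group means removed, the Pearson correlation of log2 CPM was −0.82 between *Alas1* and *Alad*. It was −0.58 between *Alas1* and *Cpox*, 0.41 between *Alas1* and *Ppox*, 0.67 between *Alad* and *Urod* and 0.61 between *Alad* and *Cpox*. Other pairs were near 0, such as *Urod* and *Fech* at 0.041 and *Alad* and *Fech* at 0.068. The pairs shown are examples. The points share library, depth and scaling, and these values are descriptions. Among tested genes with a mean of at least 10 CPM, those most like *Alas1* over the 8 samples were *Ppp1r9b* (r = 0.98) and *Tecpr1* (r = 0.98), and those most like *Alad* were *Cpsf3* (r = 0.98) and *Afg3l1* (r = 0.97). *Uros* was most like *Lyl1* (r = 0.92) and *Cebpzos* (r = 0.91), and *Urod* most like *2510002D24Rik* (r = 0.94) and *Mrpl24* (r = 0.94). *Cpox* was most like *Cipc* (r = 0.97) and *Prps2* (r = 0.97), *Ppox* most like *Enpp1* (r = 0.98) and *Dtx3* (r = 0.97), and *Fech* most like *Myo6* (r = 0.98) and *Runx2* (r = 0.98). These are the 2 highest of 8924 or 8925 genes compared for each enzyme, and none of these 14 genes was a member of the lists above.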

How the data were processed

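The deposited files hold, per the authors' methods and the submitters' processing notes, raw read counts per Ensembl gene. The authors prepared strand-specific libraries from poly(A) RNA for single-end sequencing, trimmed the reads with cutadapt 1.18, mapped them to GRCm38 with HISAT2 2.2.1 and counted each library with HTSeq 2.0.1, without normalization. The strand setting is not given in the sources used here, but *Xist* had 105071 reads and its antisense partner *Tsix* 21. Reads that the counting did not assign to a gene, for any reason (20.6% to 22.6% per library), were left out of library sizes.

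Symbols, coordinates and lengths came from GENCODE M21 (54723 of 54838 identifiers matched). Genes were filtered with filterByExpr, scaled with TMM (factors 0.988 to 1.03) and tested with edgeR 4.0.16 in R 4.3.3, without a block. CPM values are TMM-normalized, and log2 CPM values within pairs and in correlations used a prior count of 2. The SE and the 95% intervals derive from the quasi-likelihood statistic. Same-numbered samples deviated together (r = 0.758, 0.744, 0.732 and 0.636 for numbers 1 to 4, while the highest r with a different number was 0.212, 0.0292, 0.617 and 0.685, so that number 4 was closer to another number than to its own), and every value was above 0.1, so the number was also fitted as a block. The alternatives were DESeq2 1.42.0, voom of limma 3.58.1 with weighted samples, scaling by RLE or by upper quartiles, no filter, at least 10 counts in every sample, thinned counts, left-out samples or numbers and an adjusted p under 0.1. The threshold of 0.1 and upper-quartile factors together with the block were added after seeing the data. The edgeR fits with and without the block were also tested on simulated data, which held no replicate effect. The other alternatives were not tested in this way.

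The enzyme genes and all lists were chosen with earlier results of these data known. Named were all 8 enzyme genes, up to 4 called genes of each list by smallest adjusted p or otherwise its 2 with the highest mean CPM, and for each enzyme the 2 genes most correlated with it. HIF reference genes tied in adjusted p were ordered by unadjusted p. Some genes of the pathway and of the lists are not reported here.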

Additional observations from a re-analysis of the deposited data

How the results depend on the processing

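Over all genes, 96 were called higher and 155 lower without a block. With the replicate number as a block, which pairs the samples, 1394 were higher and 1170 lower, and among the 7 tested enzyme genes 1 (*Alas1*) was higher and 0 lower. Of the results given in the report, the block changed the calls named there and no other call of an enzyme gene. DESeq2 called 489 higher and 602 lower, with 1 enzyme gene higher, and limma's voom 426 and 610. Upper-quartile factors gave 101 higher and 108 lower, a different split, and RLE factors 92 and 113. Without the filter the counts were 79 and 73, and at an adjusted p under 0.1 they were 332 and 486. The block called 1941 higher and 1726 lower at 0.1, and 1598 and 975 with upper-quartile factors, each with 1 enzyme gene higher. Leaving out 1 sample gave 0 to 130 higher and 0 to 333 lower without the block. The counts were 0 and 0 without DMSO sample 3, DMSO sample 4 or IOX5 sample 3, where 1969, 1846 and 2111 genes had an unadjusted p under 0.05 by edgeR. Leaving out number 1, 2, 3 or 4 from the blocked comparison gave 994, 1119, 642 and 1355 higher and 650, 1016, 403 and 1058 lower, with 0 enzyme genes higher without number 3 and 1 otherwise. The causes of these shifts were not tested.

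The log2 fold change of *Alas1* lay between 0.20 and 0.35 under every alternative run, and those of *Alad*, *Urod*, *Cpox* and *Ppox* kept their sign in each. *Fech*, at −0.0046, turned to 0.0054 with DESeq2, 0.020 with voom, 0.0058 with RLE, 0.013 with upper-quartile factors, 0.00023 without the filter, 0.0084 with at least 10 counts in every sample, and 0.012 with the block and upper-quartile factors. Leaving out single samples moved *Fech* between −0.057 and 0.055 and *Uros* between −0.047 and 0.12. With the block, *Fech* was 0.0018 without number 1 and 0.028 without number 4, and *Uros* −0.13 without number 4. The median of the 7 enzyme genes was −0.018 without DMSO sample 4. The alternatives for the ratio of *Alas1* to *Alas2* were not run, because *Alas2* had 1 read in all.

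With 4 samples a group, the 95% intervals of 6 of the 7 tested enzyme genes included 0 without the block (5 of the 7 with it, where *Ppox* reached from 0.0073 to 0.39), and a difference within these intervals could not be told from 0. At this depth *Alas2* could not be measured. The dose, duration and pairing are not given in the sources used here, and transcript levels do not give enzyme activity or heme content.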
